A study of Mus musculus with 3 samples.

Results

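The largest olfactory receptor gene cluster of mouse chromosome 2 was covered by 263 of the 28880 tiled regions of a custom array on which methylated DNA was compared with input DNA in mouse frontal cortex. A tiled region is a run of at least 3 probes, each starting no more than 500 bp after the one before on build mm9, and the members are the regions with a midpoint from 85000000 to 90200000 on chromosome 2. They hold 3546 of the 405661 probes in tiled regions, and the rest of chromosome 2, with which they were compared, holds 2273 regions and 32941 probes. The rule uses position alone, in an interval that was set with earlier results of these data known.

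The DNA came from frontal cortex of naive male C57BL/6 mice of 2 months, in pools of 3 mice, with 1 group, no second condition and 3 arrays. From each pool an antibody to 5-methylcytosine, described as blind to hydroxymethylated DNA, captured sonicated methylated fragments. The input, labelled with Cy3, and the bound fraction, labelled with Cy5, were both amplified across the genome and hybridised to 1 array in 1 dye orientation, so that a dye effect cannot be told apart from enrichment. The titles number the arrays 1 to 3 while every description gives replicate 1, so the spread between arrays may be technical in part. Values are log2 of bound over input processed signal, relative to the median probe of the array, as mean ± SD over the 3 arrays unless stated. A value of 0 is therefore the array's typical probe and not an unmethylated sequence, and a ratio is not a methylation percentage. Depth for an array is the brightness of a probe over background, and the 3 arrays limit the precision of every value.

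Olfactory receptors are G protein-coupled receptors of odorant-sensing neurons in the nose. Their genes lie in large tandem clusters, and each mature olfactory neuron expresses 1 allele of a single receptor gene, while the others are kept in silent chromatin. The clusters are known as AT-rich, CpG-poor DNA, and the antibody captures a fragment better the more methylated CpGs it carries. Cortex is a tissue in which most of these genes are silent.

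The files name no genes, and no annotation of their build was used here, so no member was assigned to a gene. In RefSeq's annotation of GRCm38.p6, used for names and neighbours only, the longest unbroken series of olfactory receptor genes on chromosome 2 runs from Olfr987 to Olfr1274 and holds 293 of them. Of these, 222 were protein coding and 71 were pseudogenes. Only 3 other protein-coding genes lay among them: Fads2b, named as a fatty acid desaturase gene, and Pramel7 and Pramel6, of the family named after the tumour antigen PRAME. The nearest protein-coding neighbours outside were Lrrc55, a leucine-rich repeat protein gene, and Ptprj, a receptor-type tyrosine phosphatase gene. The same chromosome held 2 further olfactory receptor series, of 37 genes from Olfr334-ps1 to Olfr368 and of 47 genes from Olfr1275 to Olfr1319-ps1. No mm9 annotation was used to set them aside, so they were not removed from the rest of chromosome 2.

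The promoters of the named genes show how CpG-poor this DNA is, and 3 are printed to give the range. RefSeq's GRCm38.p6 table held 187 promoters of 186 of the 293 genes. In the 250 bases before the start, these had 0.807 ± 0.987 CpG dinucleotides (SD over promoters), from 0 to 7, against 10.68 ± 10.33 in 2602 promoters of other genes of chromosome 2. The 58 promoters of olfactory receptor genes elsewhere on the chromosome were like them, with 0.741 ± 0.947 CpG and 33.0% GC, so low CpG counts were not limited to the cluster. A total of 86 of the 187 had none, against 5.76% of the others. GC content was 30.4 ± 5.01% against 54.5 ± 11.1%. The letters TATAAA, searched on both strands, were in 51.9% of the 187 promoters and in 9.72% of the other chromosome 2 promoters. They were in 12.4% of all 32851 promoters of the table and in 29.3% of the 58 olfactory receptor promoters elsewhere on the chromosome. The share expected from GC content alone was not worked out, so an excess of these letters was not shown. In the sequences, which run 5′ to 3′ on the gene's own strand from 250 bases upstream to the last base before the start, capitals mark CpG. Olfr1212 (plus strand, 7 CpG) had the most, Olfr1018 (plus strand, 1 CpG) the median number and Olfr1000 (minus strand, 0 CpG) the fewest, with ties taken by symbol.
Olfr1212: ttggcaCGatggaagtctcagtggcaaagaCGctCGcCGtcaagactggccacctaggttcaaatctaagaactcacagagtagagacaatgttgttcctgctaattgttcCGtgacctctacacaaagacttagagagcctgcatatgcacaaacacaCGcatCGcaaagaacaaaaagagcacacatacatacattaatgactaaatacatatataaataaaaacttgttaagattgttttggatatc
Olfr1018: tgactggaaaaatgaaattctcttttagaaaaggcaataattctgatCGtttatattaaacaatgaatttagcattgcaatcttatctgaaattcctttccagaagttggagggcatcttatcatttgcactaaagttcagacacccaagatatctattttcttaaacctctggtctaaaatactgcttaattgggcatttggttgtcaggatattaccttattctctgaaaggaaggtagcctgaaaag
Olfr1000: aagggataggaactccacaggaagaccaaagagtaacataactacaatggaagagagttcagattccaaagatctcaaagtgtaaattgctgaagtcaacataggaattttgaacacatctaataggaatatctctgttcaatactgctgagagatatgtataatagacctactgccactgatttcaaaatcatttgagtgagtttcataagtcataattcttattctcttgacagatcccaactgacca
GC content was 40.0% in the first, 33.6% in the second and 35.6% in the third. These sequences describe the gene cluster and were not matched to array regions.

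The tiling itself was dense here. There were 50.6 regions per Mb, with a median gap of 14558.5 bp between neighbours, and the tiled sequence came to 318773 bp, 6.13% of the interval. The largest gap, 133865 bp, followed the first member, which ends at 85038050. The regions were built like those elsewhere, with a median of 14 probes and a median length of 1348 bp against 14 probes and 1355 bp on the rest of the chromosome. Long regions of over 1800 bp were scarcer, with 6 of 263 (2.28%) against 12.9%.

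Most probes of the cluster gave little signal in either channel. Input DNA was called well above background by the scanner software at 37.6% of cluster probes on array 1, 21.1% on array 2 and 20.1% on array 3. On the rest of chromosome 2 it was above background at 84.9%, 70.9% and 71.2%. Every array thus had a lower share in the cluster, and the highest cluster value lay far below the lowest value outside. The difference was -49.4 ± 1.95 percentage points (n = 3 arrays, exact two-sided sign-flip permutation p = 0.25, the smallest that 3 arrays allow). Array 1 had more probes above background than the other 2 arrays both inside and outside the cluster.

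Bound DNA was above background at fewer probes than input. The shares were 19.1%, 8.60% and 8.49% in the cluster, against 67.7%, 48.2% and 52.2% on the rest of chromosome 2. The median log2 processed signal of the input was 6.67, 6.48 and 6.28 in the cluster and 9.58, 9.20 and 9.30 outside it. For the bound fraction the medians were 5.73, 6.30 and 6.34 in the cluster and 9.06, 8.51 and 8.79 outside.

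**Figure D1:**
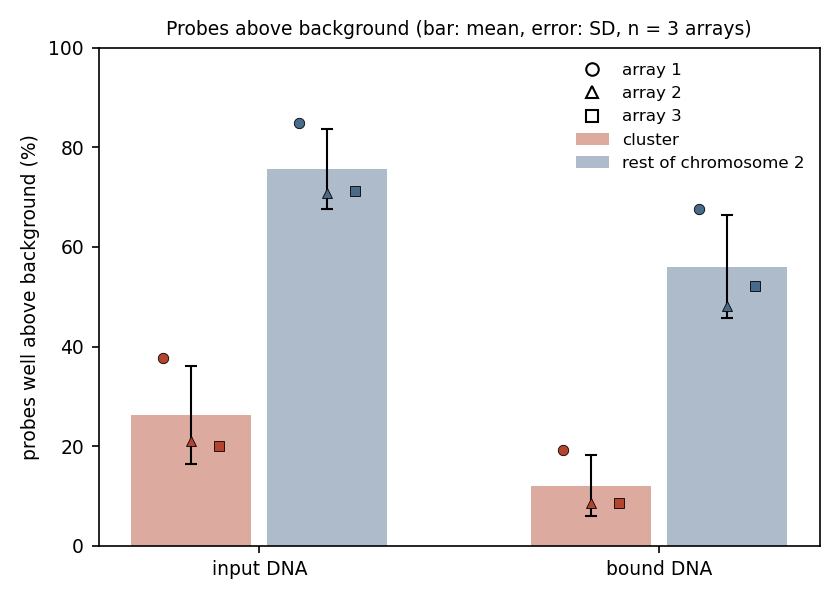
Percent of probes well above background (vertical axis) in the input and the bound channel on each of the 3 arrays, for the cluster and the rest of chromosome 2. Input was above background at 20.1% to 37.6% of cluster probes and at 70.9% to 84.9% of the others.

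Sorting the probes by their flags showed how few carry a measured ratio. A probe is called measured here where both channels exceeded background on each of the 3 arrays, and unmeasured where neither did on any. Measured probes were 245 of 3546 in the cluster (6.91%), against 14184 of 32941 (43.1%) outside. Unmeasured probes were 2150 (60.6%), against 12.7%. A further 116 probes (3.27%) had input above and bound below on all arrays, so that their mean of -1.63 is only an upper limit, and none had bound above and input below on all arrays. The remaining 1035 (29.2%) differed in flags between arrays and averaged -0.63 ± 0.26.

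The unmeasured probes read above 0, not at it. Their mean log2 ratio was 0.23, 0.51 and 0.44 on arrays 1 to 3, or 0.39 ± 0.14, and the 4178 such probes outside the cluster averaged 0.33 ± 0.14. Their bound signals lay in a narrow band, with the middle 50% of the 2150 cluster probes between 77.4 and 79.5 intensity units on array 2. The 245 measured probes had a median bound signal of 912 units on that array. A pair of background readings thus gave a positive ratio on every array. The 245 measured probes averaged 0.14, 0.02 and -0.11, or 0.02 ± 0.12, and those outside averaged 0.36 ± 0.13.

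Probe length went with the cluster too. Cluster probes averaged 59.2 nt against 52.1 nt, and 3103 of 3546 (87.5%) had 60 nt, the longest length of the design, against 29.5% outside. Probes of 45 nt, the shortest, made up 0.761% of the cluster and 32.3% of the rest. Length is the same on every array and was given no test.

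Of the 5 length classes, input was less often above background in the cluster than outside only at 60 nt. Among probes of 60 nt, input was above background at 17.0% in the cluster and 41.0% outside, a difference of -24.0 ± 8.73 points. Among probes of 56 to 59 nt the shares were 87.4% and 87.1%, differing by 0.249 ± 0.415 points (n = 3 arrays, exact two-sided sign-flip permutation p = 0.5). Probes of 46 to 50 nt and of 51 to 55 nt also had input shares of 94.5% and 93.2% in the cluster, against 91.4% and 91.9%. Cluster probes under 60 nt were few, 443 in all, and their joint input share differed from that outside by 1.14 ± 2.72 points (n = 3 arrays, exact two-sided sign-flip permutation p = 0.75).

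Where input was measured, the ratio of bound over input was lower in the cluster at every length class over 45 nt. Over probes with input above background on all arrays, the log2 ratio was -0.36 in the cluster and -0.22 outside at 46 to 50 nt, a difference of -0.14 ± 0.05. At 51 to 55 nt it was -0.67 against -0.41, a difference of -0.26 ± 0.05. At 56 to 59 nt it was -0.89 against -0.52, a difference of -0.36 ± 0.07. At 60 nt it was -0.88 against -0.57, a difference of -0.31 ± 0.05. The 27 cluster probes of 45 nt went the other way, with 0.24 against 0.06, a difference of 0.18 ± 0.07. Each of these 5 differences had 1 sign on all 3 arrays, and each had an exact two-sided sign-flip permutation p = 0.25, which no adjustment over the 15 differences by length can lower. Because bound signals at background are kept here, each mean over dim bound probes is an upper limit on their enrichment.

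**Figure D2:**
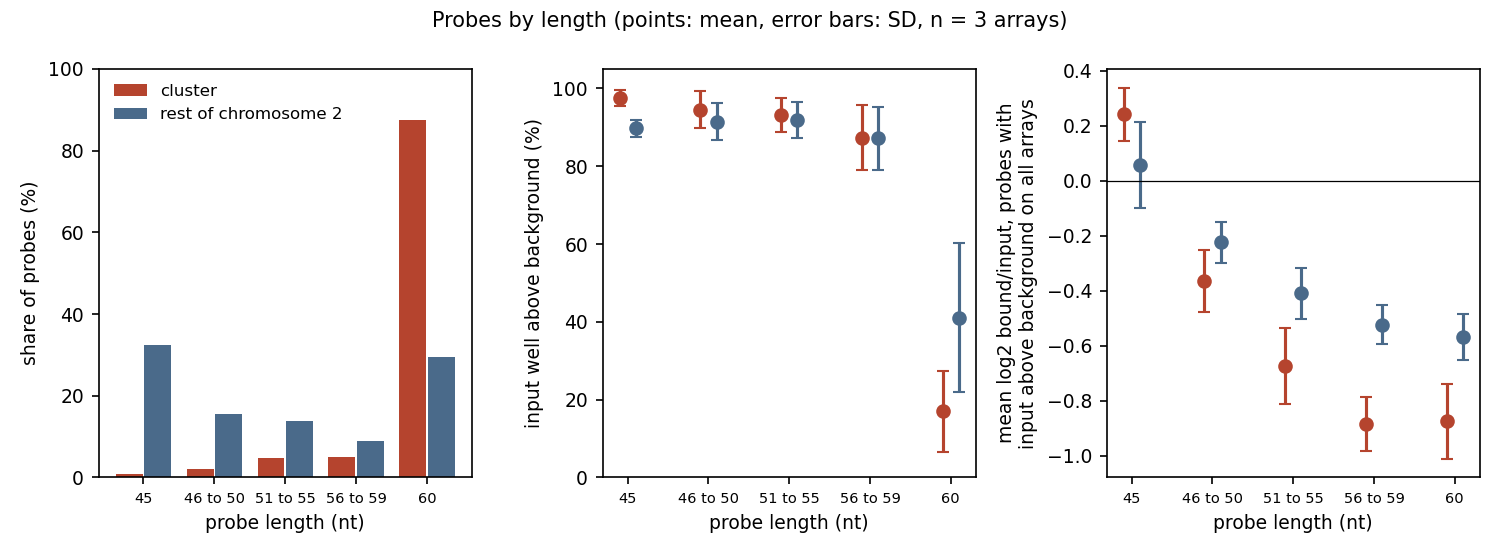
Share of probes in percent (left, bars), percent with input above background (middle) and mean log2 bound over input in probes with input above background on every array (right), by probe length in nt (horizontal axis), for the cluster and the rest of chromosome 2, with points as means and error bars as SD over 3 arrays. At 60 nt input was above background at 17.0% of cluster probes and 41.0% of the others, while at 56 to 59 nt the shares were 87.4% and 87.1%.

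Along the chromosome the input share changed over the outermost windows of the cluster and not in a single step at its limits. In windows of 0.5 Mb, input was above background at 80.4 ± 7.27% of probes in the last window before the cluster, at 40.3 ± 11.0% in the cluster's first window and at 27.0 ± 10.2% in its second. The lowest share, 20.0 ± 8.49%, was in the window from 88 Mb. The share was 36.4 ± 13.7% in the window that ends at 90 Mb and 72.9 ± 10.2% in the next, which the upper limit cuts through. In the first member 47 of 51 input measurements were above background, and in the last 26 of 36. The 42 regions in the 5 Mb before the cluster had 70.3 ± 8.84% and the 90 in the 5 Mb after it 81.5 ± 7.05%. When chromosome 2 was cut into 35 windows of the cluster's own size, the cluster had the lowest input share, 26.3 ± 9.85%, and the highest share of 60-nt probes. The next lowest, from 111.0 to 116.2 Mb, had 49.6% of probes above background and 62.4% of 60 nt.

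**Figure D3:**
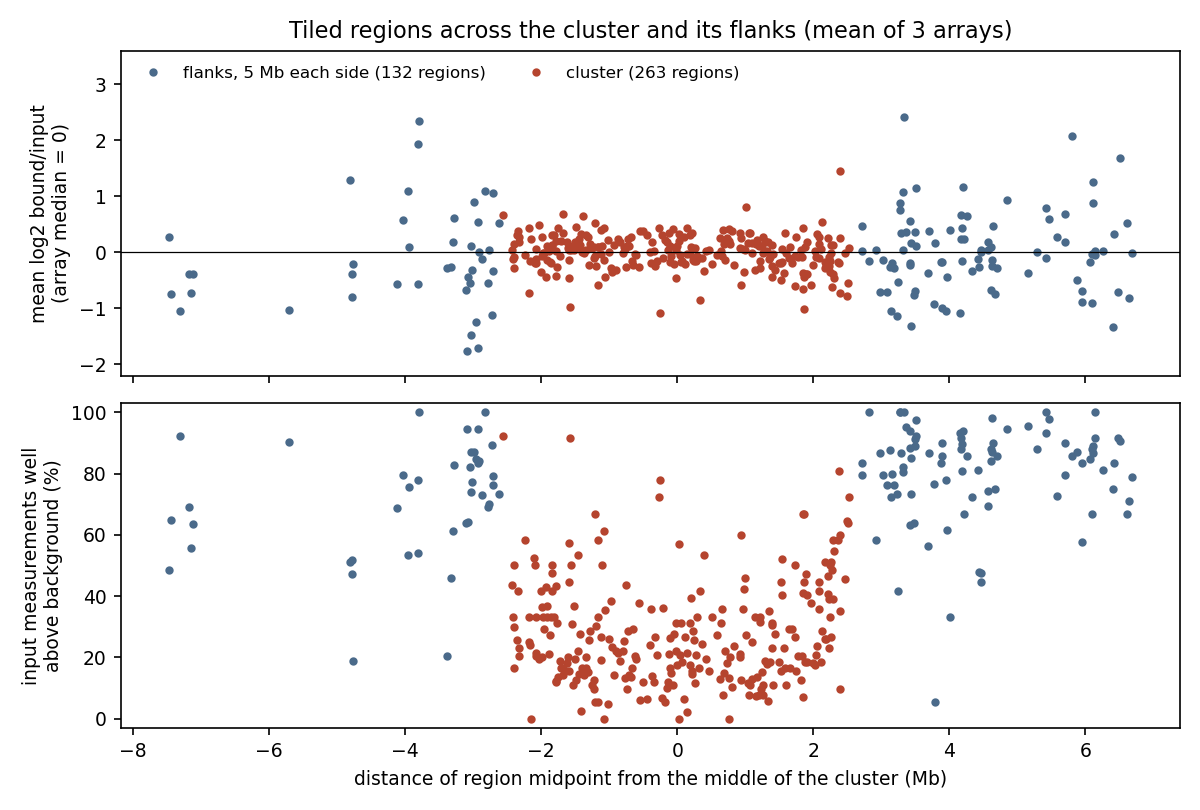
Mean log2 bound over input of each tiled region, and percent of its input measurements above background (vertical axes), against distance from the middle of the cluster in Mb (horizontal axis), for the cluster and 5 Mb on either side. Cluster regions lie in a narrow band, with 242 of 263 between -0.5 and 0.5, over the stretch where input is mostly below background.

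The region values of the cluster were narrow and close to the array median. The middle 90% of members ran from -0.55 to 0.43, against -1.20 to 1.28 on the rest of chromosome 2, and 92.0% lay between -0.5 and 0.5, against 51.1%. The extremes were -1.08 and 1.45 in the cluster and -2.16 and 3.28 outside. The arrays also ordered the members less alike than the other regions: Pearson's r between pairs of arrays was 0.57 to 0.69 over the members and 0.91 to 0.93 outside, given as a description over regions that share their arrays and are not replicates. Of the members, 47.5% had 1 sign on every array, and of the others 81.2%.

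With all probes kept, fewer members differed from the array median than regions elsewhere, but this did not hold once dim probes were set aside. By limma with Benjamini-Hochberg adjustment over all 28880 regions at 0.05, 35 of 263 members (13.3%) were higher, where 28.0% of all regions were, and 34 (12.9%) were lower, where 38.1% were. On the rest of chromosome 2 the shares were 27.6% and 39.7%. The count of higher members moved with single arrays: it was 55 without array 1, 13 without array 2 and 21 without array 3, while lower members numbered 21, 30 and 33. The split between higher and lower also moved with the scaling. It was 68 and 18 with chromosome 2 outside the cluster as zero, where 33.6% and 31.2% of all regions were called. With each array's mode as zero it was 1 and 248, where 8.66% and 76.9% of all regions were. After loess it was 18 and 26, where 31.2% and 31.0% of all regions were. After the normexp background correction it was 11 and 17, where 27.9% and 36.4% were. Changes of 2-fold or more were reached by 1 higher and 2 lower of the 263 members. Outside they were reached by 200 and 222 of 2273 regions, and over the whole array by 2554 and 2346 of 28880.

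The 2 directions differed in what lay behind them. In 31 of the 35 higher members, 50% or more of the probes were unmeasured, as in 8 of the 34 lower members, 154 of the 194 members that were neither, and 193 of all 263 (73.4%). The higher members thus lay above the cluster's own share and the lower members below it. Outside the cluster, 50% or more of the probes were unmeasured in 24 of 628 higher and 19 of 903 lower regions. The median share of unmeasured probes was 81.25% in higher members, 62.8% in those that were neither and 38.75% in lower ones. On the rest of the chromosome these medians were 4.76%, 12.5% and 8.33%. The part of unmeasured probes in the calls was not tested, but without them 7 members were higher (3.11%) and 154 lower (68.4%) of the 225 that still had probes enough to give a value, where 26.3% and 45.6% of all regions were. With input above background on all arrays as the filter, 5 were higher (5.15%) and 74 lower (76.3%) of 97 members, where 29.0% and 47.9% of all regions were.

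The region values are also given by how many input measurements were above background. Input is the denominator of the ratio, so brighter input by itself goes with a lower value, and the order is a description. The 25 members with 0% to 10% above averaged 0.28 ± 0.19, with 10 higher and 0 lower. The 112 with over 10% to 25% averaged 0.10 ± 0.19, with 17 higher and 1 lower. The 99 with over 25% to 50% averaged -0.13 ± 0.14, with 5 higher and 22 lower. The 23 with over 50% to 75% averaged -0.14 ± 0.09, with 2 higher and 9 lower. The 4 with more averaged -0.39 ± 0.05, with 1 higher and 2 lower. The rest of chromosome 2 ran much the same way over the first 4 classes. Its 14 regions in the first averaged 0.34 ± 0.17, with 6 higher and 0 lower. Its 41 in the second averaged 0.07 ± 0.19, with 8 and 2. Its 201 in the third averaged -0.10 ± 0.15, with 31 and 66. Its 695 in the fourth averaged -0.12 ± 0.02, with 159 and 280. In the class with most input above background its 1322 regions averaged -0.05 ± 0.06, with 424 higher and 555 lower, beside only 4 members.

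Over all members, unadjusted for probe length, the cluster did not differ from the rest of the chromosome beyond the spread of the arrays. The mean region value was -0.17, 0.12 and 0.05 on arrays 1 to 3 in the cluster and -0.05, -0.06 and -0.09 outside. Array 1 was on the other side from arrays 2 and 3, and the difference was 0.07 ± 0.17 (n = 3 arrays, exact two-sided sign-flip permutation p = 0.5). With the trend over probe length removed, the difference was 0.067, 0.079 and 0.081 on arrays 1 to 3, or 0.076 ± 0.007 (exact two-sided sign-flip permutation p = 0.25). Its sign depended on which probes were kept. With input above background on all arrays, the difference was -0.57 ± 0.04 over 97 members, and it was below 0 on all 3 arrays. This filter selects on the denominator of the ratio, keeps 253 of 3103 cluster probes of 60 nt against 2499 of 9718 outside, and pools all lengths; the differences within length classes, given above, ran from -0.36 to 0.18. Without unmeasured probes it was -0.44 ± 0.23 over 225 members, and with measured probes alone, which selects on the bound signal, it was -0.12 ± 0.08 over 18 members. Each of these had an exact two-sided sign-flip permutation p = 0.25. Probes of 60 nt alone gave 0.19 ± 0.02, and probes under 60 nt, in 56 members, gave -0.50 ± 0.03. The latter also pools lengths, since 45-nt probes were 27 of 443 in the cluster and 10641 of 23223 outside.

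The deposited log2 values of the series matrix, centred on the median, gave -0.78 ± 0.07 over 262 members. They follow the ratio of background-subtracted spot medians, not of processed signals, and called 6 members higher (2.29%) and 217 lower (82.8%), where 32.1% and 36.3% of all regions were. The sources used here do not state the normalization of the matrix.

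**Figure D4:**
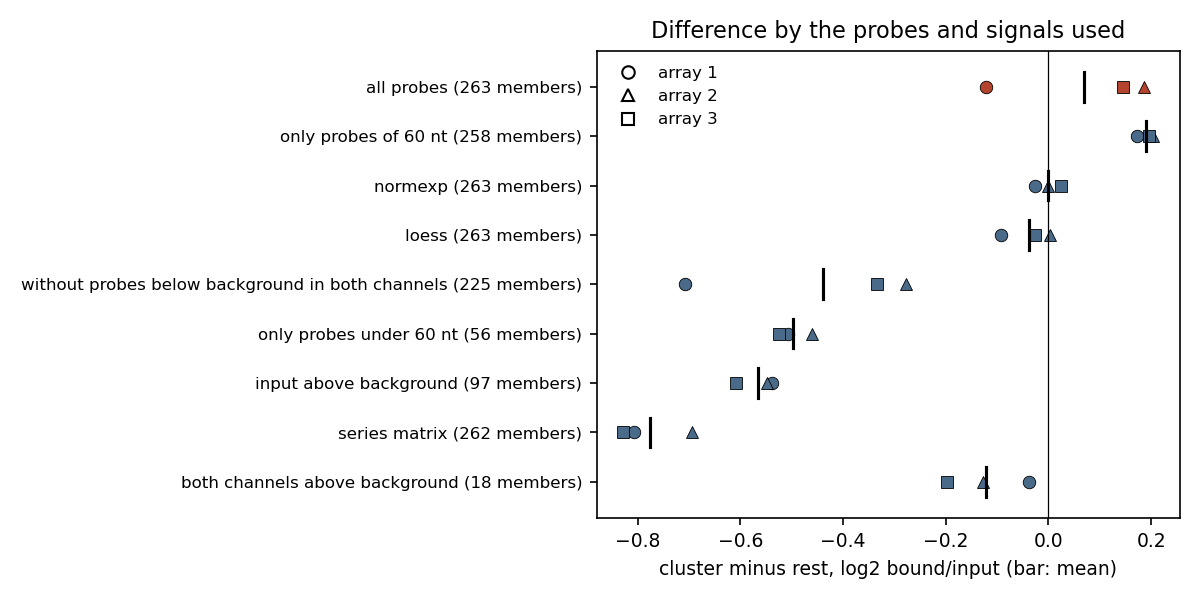
Cluster minus rest of chromosome 2 in mean log2 bound over input (horizontal axis) on each array, with the mean as a bar, for different choices of probes and signals (rows, with the number of members that gave a value). All probes gave 0.07 ± 0.17, with array 1 below 0 and arrays 2 and 3 above it, and probes with input above background gave -0.57 ± 0.04.

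Few members can be described one by one, because 128 of the 263 (48.7%) had no measured probe, against 4.93% outside, and only 18 had 3 or more. In those 18 the mean of the measured probes ran from -1.13 to 1.85 with a median of 0.20. They include 3 higher and 4 lower members, so that values above and below the array median both occur among them. A wider set of 20 members, in which at least 3 probes and 50% or more of all probes exceeded background in both channels on 1 array or more and the sign was shared by the arrays, held 4 higher members, 8 lower and 8 neither. Of all regions, with no such selection, 28.0% were higher and 38.1% lower. The extremes of the wider set follow, with positions on chromosome 2 of mm9, and adjusted p-values are limma's with Benjamini-Hochberg adjustment over all regions.

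The highest member spanned 414 bp from 89988427 to 89988840 and held 5 probes. Its values were 1.77, 1.51 and 1.07, all well above 0, with a mean of 1.45 ± 0.35 (adjusted p = 4.07e-06). The 3 probes of 48 to 51 nt on one side had both channels above background on every array and averaged 1.85 ± 0.51. The 2 probes of 60 nt on the other side were below background in both, so the outer part of the region was not measured.

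The first member of the cluster, from 85036646 to 85038050, was the best measured, with 12 of its 17 probes measured. Its values were 0.43, 0.76 and 0.82, with a mean of 0.67 ± 0.21 (adjusted p = 0.000528), and the 12 measured probes averaged 1.08 ± 0.05. The ratio was high at both ends and low between them. The first probe read 2.35 ± 0.09 and the last 2.00 ± 0.29, while the lowest probe, near the middle, read -1.08 ± 0.82 with bound signal at background on all arrays.

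The member from 87332414 to 87333603 had 8 of 12 probes measured and values of 0.55, 0.38 and 0.35, with a mean of 0.43 ± 0.11 (adjusted p = 0.00688). Its 8 measured probes averaged 0.40 ± 0.08 on the zero of the main values. When arrays were centred again on measured probes, the same probes averaged -0.054. The remaining higher member of the set, from 88608394 to 88609650, read 1.00, 0.72 and 0.72, with a mean of 0.81 ± 0.17 (adjusted p = 9.71e-05). All of its 11 probes had 60 nt, none was measured in both channels on all arrays, and bound signal was above background in 8 of 33 measurements. The series matrix gave 0.16 for it, with an adjusted p = 0.357 by limma.

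The lowest member was also one of the longest, with 24 probes over 2277 bp from 87346502 to 87348778. Its values were -0.964, -1.003 and -1.271, close to each other and all far below 0, with a mean of -1.08 ± 0.17 (adjusted p = 1.13e-05). Input was above background in 56 of 72 measurements and bound in 30. Its probes differed widely. Of the measured ones, the first probe read -1.39 ± 0.24 and the fourth 0.24 ± 0.25, and a probe near the other end, with bound signal above background on 1 array, read -2.92 ± 0.33, where input signals were 4959, 3077 and 3109 units and bound signals 727, 288 and 377 units. This is a stretch in which input was bright and little DNA was captured.

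The next lowest were similar in having measured input. The member from 86022072 to 86022321 read -0.93, -1.27 and -0.71, with a mean of -0.97 ± 0.29 (adjusted p = 5.06e-05), and input was above background in 11 of its 12 measurements. Bound signal was above background in 6 of the 12, and its 1 measured probe read 0.17 ± 0.28. The member from 90092979 to 90094294 read -0.91, -0.74 and -0.71, with a mean of -0.79 ± 0.11 (adjusted p = 9.92e-05), and its 6 measured probes averaged -0.90 ± 0.15. The other 5 lower members of the set lay between -0.66 and -0.39, of which the one from 89892331 to 89892703 (-0.39 ± 0.24, adjusted p = 0.0175 by limma) was no longer called without array 2 or without array 3.

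The longest row of neighbours called the same way had 3 lower members between 89453991 and 89459615. They read -0.36 ± 0.14, -1.01 ± 0.31 and -0.45 ± 0.36. The middle one had bound signal above background in 0 of 12 measurements and input in 8, so its value is an upper limit. The first and the third were not called without array 1 or without array 3.

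At the ends of the interval the values did not change in step with the limits. Just below 85 Mb, outside the cluster, the region from 84975328 to 84976704 read 0.52 ± 0.18, and the first member inside read 0.67 ± 0.21. At the upper end, the last member, from 90122566 to 90123519, read 0.08 ± 0.09, and the next region outside, from 90311324 to 90312549, read 0.02 ± 0.47. The member with the most probes, 30 from 89203362 to 89205765, read -0.15, 0.10 and 0.04, with 22 probes unmeasured and bound signal above background in 1 of 90 measurements. The longest, 2700 bp from 87496850 to 87499549, read 0.11 ± 0.25. In it 19 of 26 probes were unmeasured.

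Within regions the cluster ran opposite to the rest of chromosome 2. Over 190 members of 1000 to 1800 bp with at least 8 probes, probes within 200 bp of the midpoint averaged 0.11 ± 0.20 and those over 500 bp from it -0.15 ± 0.14. The centre minus the edges was 0.18, 0.29 and 0.29 on the 3 arrays, or 0.25 ± 0.06, against -0.35, -0.25 and -0.23 in 1448 regions outside, or -0.28 ± 0.06. The groups did not overlap, and the cluster minus the rest was 0.53 ± 0.01 (n = 3 arrays, exact two-sided sign-flip permutation p = 0.25). By limma, 51 members (26.8%) had a higher centre, where 14.7% of all such regions did, and 13 (6.84%) a lower one, where 33.5% did. Without array 2 the first count was 26.

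The flags moved with this contrast. Input was above background at 18.3 ± 9.60% of centre probes and 39.2 ± 11.5% of edge probes in the cluster, while the shares outside were 73.6% and 75.2%. Probes of 60 nt made up 94.0% of the cluster's centres and 76.7% of its edges, and 68.5% of centre probes against 46.2% of edge probes were unmeasured. With measured input alone the sign turned, to -0.82 ± 0.23 in the 9 members that still had enough probes. In bins of 100 bp from the midpoint, cluster probes with measured input lay between -0.97 and -0.61 at every distance up to 700 bp, with -0.80 in the innermost bin and -0.64 in the outermost, and outside they rose from -0.34 to 0.02. No member had both its centre and its edges measured in every probe, so none is named for this contrast.

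**Figure D5:**
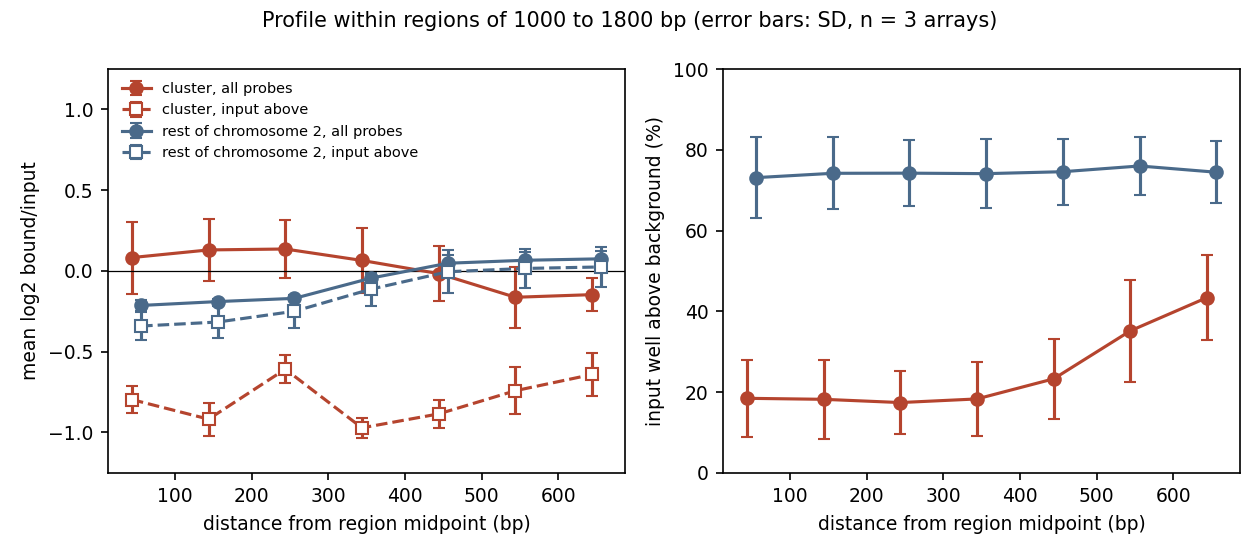
Mean log2 bound over input (left) and percent of input above background (right) against distance from the region midpoint in bp, for regions of 1000 to 1800 bp, with SD over 3 arrays; open squares are probes with measured input. In the cluster all probes read higher at the centre than at the edges, while probes with measured input stayed between -0.97 and -0.61.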

How the data were processed

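DNA of 3 frontal cortex pools was profiled on 3 two-colour Agilent arrays of 1 design, placed on mm9. The scanner files deposited by the authors hold spot intensity in both channels, made with Feature Extraction 10.7.3.1 per the file headers, and flags for signal well above background. The deposited series matrix holds log2 values that followed the log ratio of background-subtracted spot medians, bound over input (r of 0.999 or more), with medians of -0.97. Its normalization and centring are not given in the sources used here.

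Control spots and outlier flags were left out, processed signals were turned into log2 ratios of bound over input, and each array was centred on its median (-0.19, -0.19 and -0.09 before), with no loess. Repeated spots were averaged, which left 409597 placed probes. Region values are means over probes, and no probe was dropped for dimness in the main values. They were tested against 0 with limma 3.58.1 in R 4.3.3 over all regions, and differences between parts of the chromosome with an exact sign-flip permutation test over arrays (Python 3.11.15, scipy 1.17.1). The fits were tested on simulated data with independent normal noise in each region. Those data had no background floor and no offset shared within an array, so they do not bear on calls from dim probes. Sequences are RefSeq's, on GRCm38.p6.

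Members named were the 8 highest and 8 lowest with 1 sign on all arrays, at least 3 probes and 50% of all probes exceeding background in both channels on 1 array or more, those beside the interval's ends, the longest, the one with most probes, the longest row of equal calls, and the 3 highest and 3 lowest centre contrasts with every such probe measured. Only 20 members met the first condition, so 4 of the 8 highest were not called, 1 of these below 0. The members, lists and rules were chosen with earlier results of these data known.

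Alternatives were other signals, normalizations, zero points, probe filters, region rules and intervals, and leaving out each array. The normexp alternative used spot medians in place of the planned means. The 2 probe length subsets were added after the data were seen.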

Additional observations from a re-analysis of the deposited data

How the results depend on the processing

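Probe brightness, probe length and the zero point each limit these results: 60.6% of cluster probes were unmeasured, that is, with neither channel above background on any array, and values at background have no order. The 3 arrays allow no sign-flip p below 0.25. No paired analysis was possible because there was 1 group. Where a cause is not given by the construction of an alternative (fewer probes or members), the cause was not tested.

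The difference of the cluster from the rest of chromosome 2 (0.07) turned to -0.57 with input above background, -0.12 with measured probes alone, -0.44 without unmeasured probes, -0.78 in the series matrix, -0.039 after loess, -0.00088 after normexp and -0.50 with probes under 60 nt. It ranged from 0.012 to 0.17 when an array was left out, and kept its sign under the other alternatives run, with 0.03 to 0.21. The input difference (-49.4 points) was -51.5 against chromosome 2 within 5 Mb, -24.0 with probes of 60 nt and 1.14 with shorter ones, and -50.5 to -48.6 without an array.

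Higher members (35) numbered 4 of 18 with measured probes alone, 5 of 97 with input above and 7 of 225 without unmeasured probes. With measured probes alone, arrays were centred again on such probes. The higher and lower counts there are thus against another zero than the main values. On the main zero, the means of the measured probes in these 18 members had a median of 0.20. In the series matrix 6 of 262 were higher. Of 263 members, 18 were higher after loess, 11 after normexp, 79 with medians over probes and 7 with a minimum log2 of 0.5. There was 1 with the mode as zero, 68 with chromosome 2 outside the cluster as zero, and 13 to 55 without an array. Lower members (34) are given where they moved by over 1.5 times. They numbered 11 of 18 with measured probes alone, 74 of 97 with input above and 154 of 225 without unmeasured probes. In the series matrix 217 of 262 were lower. Of 263 members, 17 were lower after normexp, 19 with medians, 14 with the minimum and 248 with the mode. There were 18 with chromosome 2 as zero, and 21 to 33 without an array. With measured probes alone 31.8% of all regions were higher and 46.3% lower, and with medians 28.7% and 31.8%. For the other alternatives listed, except the minimum and the leaving out of an array, these shares are given above. Whichever array was left out, smaller shares of all regions were called higher and called lower than with all arrays. The split between higher and lower calls thus depends on the zero point.

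The centre minus edges contrast (0.25) was -2.06 with measured probes alone, which is a single member, -0.82 with input above (9 members), -0.11 without unmeasured probes (56), -0.23 in the series matrix (143), and over all 190 members 0.13 after loess and 0.074 after normexp, and 0.23 to 0.29 without an array. Its difference from the rest of chromosome 2 (0.53) was -1.81, -0.47, 0.23, 0.051, 0.37 and 0.19 under the same alternatives in that order, 0.57 with medians, 0.43 with the length trend removed, 0.56 against 5 Mb on either side, and 0.52 to 0.54 without an array. Members with a higher centre (51) numbered 0 of 1, 0 of 9, 9 of 56, 7 of 143, 16 of 190 and 28 of 190 in that order, and 26 to 51 without an array. Those with a lower centre (13) numbered 1 of 1, 5 of 9, 25 of 143 and 6 of 190 with measured probes alone, input above, the matrix and loess, and 9 to 13 without an array.

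Over 24 named regions and 242 values, 192 kept direction and side of the threshold, 17 changed sign with no call in either setting, 15 lost their call, 11 gained one and 7 changed sign with a call in at least 1 setting. The last were -0.70 with input above, -0.40 in the matrix and -0.46 without unmeasured probes for the region at 85171915. That at 87332414 read -0.054 with measured probes alone, where arrays were centred again on such probes. That at 87496850 read -0.998 in the matrix and -0.75 without unmeasured probes. With medians, that at 89459209 read 0.026.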
